A study of Mus musculus with 8 samples.

Results

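A set of 10 genes of BMP, ALK1 and TGF-beta signalling were followed in forebrain microvessels from mice at 5 days of age (P5), 10 days of age (P10) and adulthood. They are the ligand Bmp6, the receptors Acvrl1 and Tgfbr2, the co-receptors Eng and Tgfbr3, the inhibitory Smads Smad6 and Smad7, the target genes Id1 and Id3, and the endothelial membrane protein gene Tmem100. They were chosen by name, with earlier results of these data known, and every array probe whose accession belonged to 1 of them was used. This gave 11 probes for the 10 genes, out of 39429 probes on the array, with 2 probes for Tgfbr2 and 1 for each other gene. All 10 genes passed the filter on dim probes and were among the 21926 genes tested.

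Microvessels under 70 µm were prepared from whole forebrain, so the material was enriched in small vessels and not purified for 1 cell type. No group carried a mutation or a treatment, and the labels used here do not give a strain or say whether the replicates came from separate animals or pools. Each of the 8 arrays received RNA of 2 ages in different dyes, and the 2 replicates each filled 4 arrays on 1 slide. A slide held P5 over adult, P10 over adult, P10 over adult with the dyes exchanged, and P5 over P10, and P5 RNA always carried Cy5, so the dye term behind each P5 value comes from the P10 and adult RNA. Each array value is a log2 ratio of the younger over the older age, and the fitted value combines the 4 arrays of each slide with a dye term. The standard errors and p-values rest on 2 samples per age and cover no more than the differences between those, which could be technical.

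BMP and TGF-beta ligands bind pairs of type I and type II receptor kinases, which phosphorylate Smad proteins that enter the nucleus and regulate genes. In endothelial cells, the type I receptor ALK1, encoded by Acvrl1, and its co-receptor endoglin, encoded by Eng, carry the response to circulating BMP ligands, and mutations in either gene cause hereditary haemorrhagic telangiectasia, a disease of malformed vessels. Id genes are among the most direct targets of this route, and Smad6 and Smad7 are targets that feed back to inhibit it. In the brain, TGF-beta receptor signalling in the endothelium is required for the normal growth of its vessels.

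Most of the 10 genes were lower in the young vessels than in adults. At P5, 9 of the 10 genes were lower than in adults and none was higher (limma, adjusted p below 0.05), against 23% of all genes tested called lower, 30.1% called higher and 53.1% called in either direction. At P10, 7 were lower than in adults and 1, Tmem100, was higher, against 9.1% of all genes called lower, 8.42% called higher and 17.5% called in either direction. Between the young ages, 9 were lower at P5 than at P10 and none higher, against 18.2% of all genes called lower and 41.2% called in either direction. The median log2 ratio of the 10 genes was -1.55 for P5 over adult, -0.64 for P10 over adult and -1.16 for P5 over P10. The median of all genes tested was 0.09, 0.01 and 0.06. The genes tested include accessions without a symbol. Among the 15577 with a symbol, 4291 were lower and 4187 higher in P5 against adult. In P10 against adult these counts were 1723 and 1467, and in P5 against P10 they were 3392 and 3169. Counted by probe, 10, 8 and 10 of the 11 probes passed in P5 against adult, P10 against adult and P5 against P10, where 52.1%, 17.2% and 40.2% of all probes did. Bmp6 passed in none of the 3 comparisons. Of the 10 genes, 7 (Acvrl1, Eng, Tgfbr3, Smad6, Smad7, Id1 and Id3) passed as lower both at P5 than at P10 and at P10 than in adults. This stepwise course was found in 3.22% of all genes tested. It rests on P10 calls that, in Eng, Tgfbr3, Smad6 and Id3, passed in only 5 or 6 of the 12 alternative tests. With the background model fitted on all spots as recorded, no gene had this course, since none passed in P5 against P10. P5 over adult and P10 over adult share the adult RNA of each slide, so their values are given side by side and not as separate support. Because the genes were chosen with earlier results known, the shares of all genes give a scale and are not a test of the set.

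The calls of P5 against adult held up best. In that comparison, 8 or 9 genes were called under each of the 12 alternative analyses that allowed a test. Of all genes tested, 24.6% to 59.7% were called under them. In P10 against adult the count of 8 dropped to 1, 2, 3, 4 or 5 under 6 of them, including to 3 without the replicate block. The share of all genes called under those 6 ran from 1.17% to 12.9%, in place of 17.5%. The fitted direction of all 8 held in every one of the 12. With no filter on dim probes, Tgfbr3 and Smad6 also lost their P10 call (limma, adjusted p = 0.0554 and 0.0627). In P5 against P10 the count of 9 dropped to 0 with the background model fitted on all spots as recorded (limma, smallest adjusted p 0.0532 among the 10 genes). No gene tested passed there. In limma, 9 of the 10 and 7069 of all 21926 genes then had an unadjusted p below 0.05. Those 9 passed in the other 11 alternatives, where 24.4% to 49.2% of all genes were called.

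**Figure D1:**
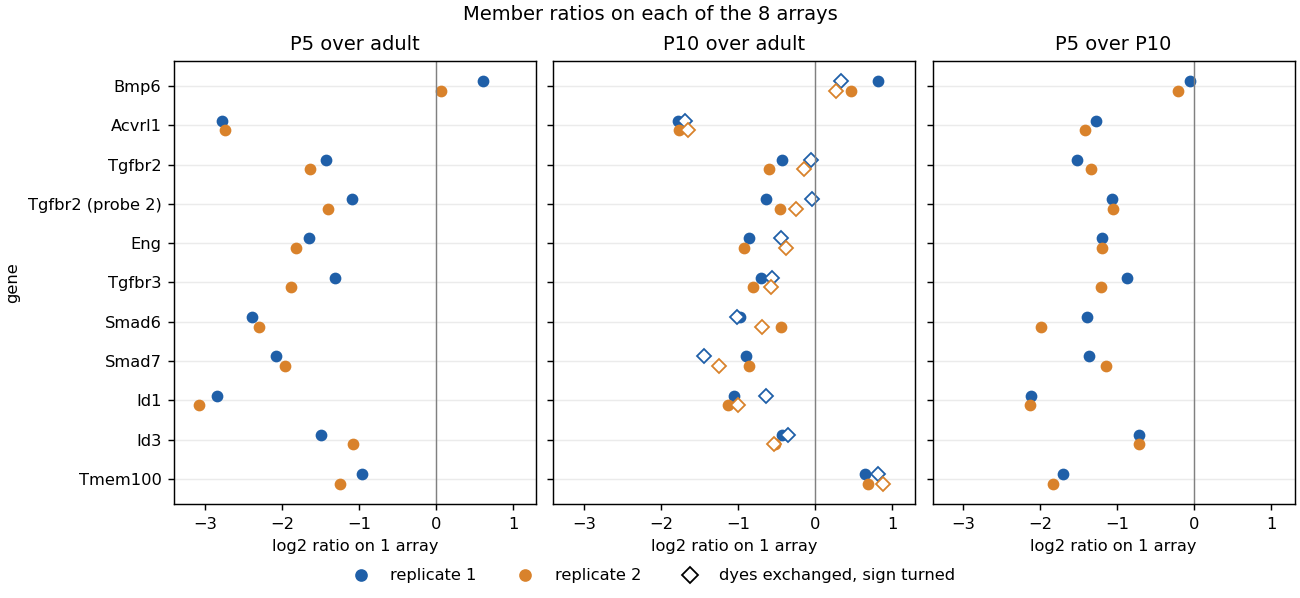
Log2 ratio of the younger over the older age on each array (horizontal axis) for the 11 probes (rows), in 3 panels for the 3 age pairs. Filled circles are arrays with the younger age in Cy5, open diamonds the dye-exchanged arrays with the sign turned, and colours mark the 2 replicates. In P5 over adult every probe but that of Bmp6 lies below 0 in both replicates, and in P10 over adult the Tmem100 probe lies above 0 on all 4 arrays.

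The receptor Acvrl1 had, with Id1, 1 of the 2 lowest P5 over adult ratios of the 10 genes. Its log2 ratios were -2.77 and -2.73 on the P5 over adult arrays of replicates 1 and 2. On the P10 over adult arrays they were -1.78 and -1.70 in replicate 1 and -1.77 and -1.65 in replicate 2, with the dye-exchanged array second. On the P5 over P10 arrays they were -1.27 and -1.41. All 8 arrays therefore placed Acvrl1 lower at the younger age, and the replicates lay close together. The fitted ratios were -2.83 ± 0.09 (SE, n = 2, adjusted p = 0.000525) for P5 over adult, 7.1-fold lower, and -1.66 ± 0.09 (adjusted p = 0.00225) for P10 over adult, 3.16-fold lower. Only 0.328% of all genes tested had a lower P5 over adult ratio and 0.566% a lower P10 over adult ratio. P5 was 2.25-fold below P10 (-1.17 ± 0.09, adjusted p = 0.00434). Both Acvrl1 differences from adult passed in all 12 alternative tests. With median centring in place of loess the P5 over adult ratio was larger, at -3.51 (11.4-fold lower), and so were those of Id1 (-3.57), Eng (-2.22), Tgfbr2 (-2.08) and Id3 (-1.90), each a fold over 1.5 times that of the fit with loess. In P5 over P10 the same 5 genes moved by over 1.5 times, to -1.97 in Acvrl1, -2.74 in Id1, -1.72 in Eng, -1.93 in Tgfbr2 and -1.52 in Id3.

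Tgfbr2 encodes the type II receptor of TGF-beta and was measured by 2 probes. At its brighter probe the P5 over adult arrays gave -1.42 and -1.64 and the P5 over P10 arrays -1.52 and -1.35. The P10 over adult arrays gave -0.44 and -0.05 in replicate 1 and -0.60 and -0.14 in replicate 2, the dye-exchanged array second. Tgfbr2 was thus clearly lower at P5, while its P10 ratios were small and differed with the dye. The fitted ratio was -1.40 ± 0.10 (SE, n = 2, adjusted p = 0.0011) for P5 over adult, 2.65-fold lower, and -1.14 ± 0.10 (adjusted p = 0.00494) for P5 over P10. P10 over adult was -0.27 ± 0.10 and did not pass (adjusted p = 0.152). The dimmer probe gave -1.11, -0.31 and -0.80 for P5 over adult, P10 over adult and P5 over P10, the same directions and the same calls.

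Eng, the ALK1 co-receptor, lay between these 2 receptors at P10. Its P5 over adult arrays gave -1.65 and -1.82 and its P5 over P10 arrays -1.20 and -1.20. The P10 over adult arrays gave -0.86 and -0.45 in replicate 1 and -0.92 and -0.38 in replicate 2, the dye-exchanged array second. All 8 values were below 0, with the exchanged arrays nearer 0 in both replicates. The fitted ratios were -1.54 ± 0.09 (SE, n = 2, adjusted p = 0.000842) for P5 over adult and -0.91 ± 0.09 (adjusted p = 0.00594) for P5 over P10. P10 over adult was -0.63 ± 0.09 (adjusted p = 0.0161) and passed in 6 of the 12 alternative tests. The fitted values per replicate were nearly equal, -1.53 and -1.56 at P5 and -0.61 and -0.65 at P10.

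Tgfbr3 encodes betaglycan, a co-receptor that presents TGF-beta to its signalling receptors and is a structural relative of endoglin. Its P5 over adult ratios were -1.32 and -1.89, the P10 over adult ratios -0.70 and -0.56 in replicate 1 and -0.80 and -0.58 in replicate 2, and the P5 over P10 ratios -0.87 and -1.21. The gene was lower at the younger age on every array, with the lower P5 value in replicate 2. Its fitted P5 over adult ratio of -1.55 ± 0.14 (SE, n = 2, adjusted p = 0.00182) was close to that of Eng. P5 over P10 was -0.91 ± 0.14 (adjusted p = 0.0125). P10 over adult, at -0.64 ± 0.14 (adjusted p = 0.0436), passed in 5 of the 12 alternative tests.

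**Figure D2:**
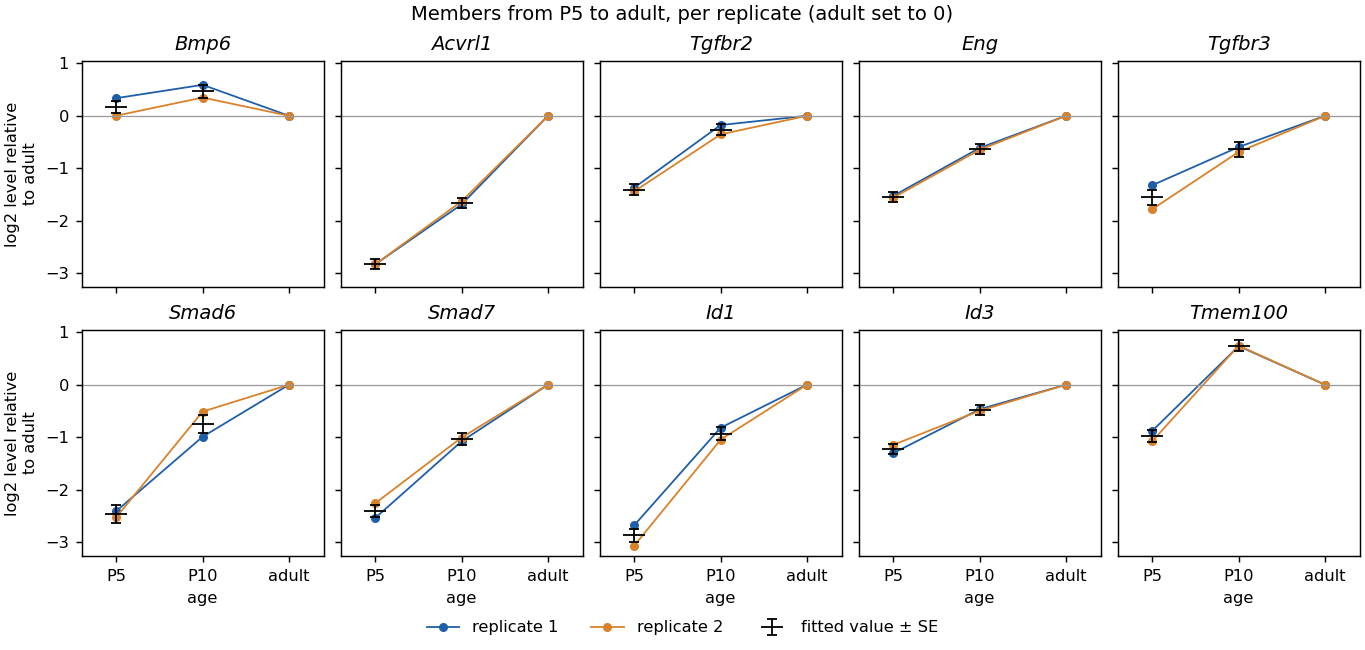
Log2 level relative to the adult RNA of the same slide (vertical axis) at P5, P10 and adult (horizontal axis) for each gene, with 1 line per replicate and the fitted value ± SE in black. Acvrl1 has the lowest P10 value, -1.66, Tmem100 rises above adult at P10 at 0.74, and Bmp6 stays within 0.59 of adult in both replicates.

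Smad6 and Smad7, the inhibitory Smads, block receptor-activated Smads and form a negative feedback on the pathway. Smad6 gave -2.39 and -2.29 on the P5 over adult arrays and -1.39 and -1.99 on the P5 over P10 arrays. Its P10 over adult arrays gave -0.97 and -1.01 in replicate 1 and -0.44 and -0.69 in replicate 2, the dye-exchanged array second. The P5 values were alike in the 2 replicates and the P10 values were not. Fitted, Smad6 was 5.53-fold lower at P5 than in adults (-2.47 ± 0.17, SE, n = 2, adjusted p = 0.00101) and lower at P5 than at P10 (-1.71 ± 0.17, adjusted p = 0.00572). P10 over adult was -0.75 ± 0.17 (adjusted p = 0.0447), -0.99 and -0.51 in the 2 replicates, and passed in 6 of the 12 alternative tests.

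Smad7 had P5 over adult ratios of -2.08 and -1.96 and P5 over P10 ratios of -1.37 and -1.15. Its P10 over adult ratios were -0.90 and -1.45 in replicate 1 and -0.85 and -1.25 in replicate 2, the dye-exchanged array second. Here the exchanged arrays lay further from 0, opposite to Eng and Tgfbr2. The fit, which takes the dye into account, gave 5.28-fold lower at P5 (-2.40 ± 0.11, SE, n = 2, adjusted p = 0.000559). It gave 2.06-fold lower at P10 (-1.04 ± 0.11, adjusted p = 0.00785), and this passed in 11 of the 12 alternative tests. P5 over P10 was -1.36 ± 0.11 (adjusted p = 0.00461).

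Id1 and Id3 encode inhibitors of basic helix-loop-helix transcription factors and are classical BMP targets. Id1 had the largest P5 difference of the 10 genes, with P5 over adult arrays at -2.84 and -3.08. The P10 over adult arrays gave -1.05 and -0.64 in replicate 1 and -1.14 and -1.01 in replicate 2, and the P5 over P10 arrays -2.12 and -2.13. Every array put Id1 lower at the younger age, and the drop from P10 to P5 was larger than that from adult to P10. The fitted ratio at P5 was -2.87 ± 0.13 (SE, n = 2, adjusted p = 0.000529), 7.32-fold lower than in adults, and 0.301% of all genes tested had a lower ratio. P5 was 3.83-fold below P10 (-1.94 ± 0.13, adjusted p = 0.00398), where 0.178% of genes had a lower ratio. P10 over adult was -0.93 ± 0.13 (adjusted p = 0.0134) and passed in 9 of the 12 alternative tests.

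Id3 moved the same way by less. Its P5 over adult arrays gave -1.50 and -1.07, its P10 over adult arrays -0.43 and -0.35 in replicate 1 and -0.53 and -0.54 in replicate 2, and its P5 over P10 arrays -0.72 and -0.71. All 8 were below 0, and the P10 values varied little with the dye. The fitted ratios were -1.23 ± 0.10 (SE, n = 2, adjusted p = 0.0015) for P5 over adult and -0.74 ± 0.10 (adjusted p = 0.00992) for P5 over P10. P10 over adult was -0.48 ± 0.10 (adjusted p = 0.0399) and passed in 6 of the 12 alternative tests.

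Tmem100 encodes a small membrane protein whose endothelial expression depends on ALK1 signalling, and it was the only one of the 10 genes that passed as higher at any age. Its P5 over adult arrays gave -0.96 and -1.25, below 0. Its P10 over adult arrays gave 0.65 and 0.82 in replicate 1 and 0.69 and 0.88 in replicate 2, all above 0. The P5 over P10 arrays gave -1.71 and -1.84. The order of its levels was P5, adult, P10, and each neighbouring pair differed in limma: P5 over adult was -0.98 ± 0.11 (SE, n = 2, adjusted p = 0.00275) and P10 over adult 0.74 ± 0.11 (adjusted p = 0.0151), 1.67-fold higher. P5 lay 3.29-fold below P10 (-1.72 ± 0.11, adjusted p = 0.00398). The pattern of lower than adult at P5 and higher than adult at P10, all called, with P5 also below P10, was found in 0.233% of all genes tested. This share is a description, since the pattern counted is the one seen in Tmem100. The P10 call held in 10 of the 12 alternative tests, and the P5 over adult and P5 over P10 calls held in 11 each. With the background model fitted on all spots as recorded, none of these calls held. Then P5 over adult was -0.90, P10 over adult 0.42 and P5 over P10 -1.32 (limma, adjusted p = 0.0843, 0.52 and 0.0981). Of the 11 probes it was the dimmest, at 2.49 to 17 times the local background, with all 16 channels well above background. An added offset of 50 shrinks ratios of dim probes, and its part in the Tmem100 values was not tested. With no background correction the P5 over adult ratio of Tmem100 was -1.04. With Agilent processed signals its P5 over adult ratio was -1.59 and its P5 over P10 ratio -2.57, and with the deposited log ratio they were -1.65 and -2.60.

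Bmp6, a BMP ligand that also sets iron balance through the liver, did not pass in any comparison. The P5 over adult arrays gave 0.62 and 0.06, the P10 over adult arrays 0.81 and 0.33 in replicate 1 and 0.47 and 0.27 in replicate 2, and the P5 over P10 arrays -0.05 and -0.21. The P10 values were above 0 on all 4 arrays, whereas the P5 values of the replicates lay apart. The fitted ratios were 0.17 ± 0.12 (SE, n = 2, adjusted p = 0.285) for P5 over adult, 0.47 ± 0.12 (adjusted p = 0.0609) for P10 over adult and -0.30 ± 0.12 (adjusted p = 0.106) for P5 over P10. The 95% intervals, not adjusted for the number of genes, ran from -0.14 to 0.48, from 0.16 to 0.78 and from -0.61 to 0.01, so a P5 difference from adult of the size seen in the other 9 genes lay outside the interval.

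For the 8 genes below adult at both young ages, the step from P5 to P10 made up 41.4% of the whole log2 difference in Acvrl1, 56.6% in Smad7, 58.7% in Tgfbr3, 59.2% in Eng, 60.7% in Id3, 67.5% in Id1, 69.5% in Smad6 and 81.1% in Tgfbr2. These shares are descriptions, and differences between them were not tested. They moved with the processing: with median centring in place of loess they ran from 56.2% in Acvrl1 to 92.3% in Tgfbr2, so the step before P10 was then the larger in Acvrl1 too, and over the 12 alternatives Tgfbr3 reached down to 47.6% and Smad7 to 49%. By P10, Tgfbr2 no longer differed from adult beyond the test's threshold, while Acvrl1 was still 3.16-fold lower.

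Promoter sequence in the RefSeq table (GRCm38.p6) was found for 5 of the 10 genes, Bmp6, Tgfbr2, Eng, Smad6 and Id3, and the 250 bases before the gene's start were searched on both strands for CAGAC, the core of the Smad-binding element, and for GGCGCC, a GC-rich element bound by BMP Smads. The upstream sequences of Id3 and Eng are shown because each gene passed as lower in all 3 comparisons and each holds CAGAC at 2 places, given in capitals (GTCTG is the same motif on the other strand). They are read 5′ to 3′ on the strand of the gene, from chr4:136143572-136143821 (plus strand) for Id3 and chr2:32646345-32646594 (plus strand) for Eng.
Id3: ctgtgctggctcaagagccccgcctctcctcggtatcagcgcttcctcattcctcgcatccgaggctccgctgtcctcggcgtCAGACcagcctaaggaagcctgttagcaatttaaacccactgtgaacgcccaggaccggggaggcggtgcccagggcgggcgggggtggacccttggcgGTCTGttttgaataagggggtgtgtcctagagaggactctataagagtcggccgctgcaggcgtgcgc
Eng: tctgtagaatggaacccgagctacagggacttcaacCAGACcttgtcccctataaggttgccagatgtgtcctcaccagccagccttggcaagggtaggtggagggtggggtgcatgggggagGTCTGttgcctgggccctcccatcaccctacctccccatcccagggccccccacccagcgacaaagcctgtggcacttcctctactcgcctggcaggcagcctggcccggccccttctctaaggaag
In Id3 the matches begin 167 and 68 bases before the start, and in Eng 214 and 127 bases before it. Tgfbr2 held 1 match and so did Bmp6, whose ratios did not pass. Smad6, which also passed as lower in all 3 comparisons, held none in this window. CAGAC occurs at 1 or more places in 42.2% of the 32851 promoters of the table and GGCGCC, found in none of the 5, in 9.59%. The share of promoters with CAGAC at 2 places was not counted. A match of 5 bases is a description of the sequence and not a binding site.

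Of 58 further ligands, receptors, Smads, inhibitors, latency proteins and targets, 55 passed the filter, and Bmp10, Gdf2 and Bambi did not. At P5, 25 of the 55 were lower than in adults and 12 higher (median log2 ratio -0.32), where 23% of all genes tested were called lower and 30.1% higher. At P10, 5 were lower and 7 higher (median -0.03), where 9.1% of all genes were called lower and 8.42% higher, so the lower calls were at the share of all genes. P5 was below P10 for 22 and above it for 7 (median -0.26), where 18.2% of all genes were called lower and 23% higher. With so few genes in each role, the counts by role are to be read against the same shares. Median centring also moved the P5 over adult ratios of Hey1 (-2.60), Ltbp4 (-2.55), Tsc22d1 (-2.13), Ccn2 (-2.11), Htra1 (-1.70), Tgfb2 (-1.65) and Nbl1 (-1.63) by over 1.5 times, further from 0 than the fitted values given for each gene.

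**Figure D3:**
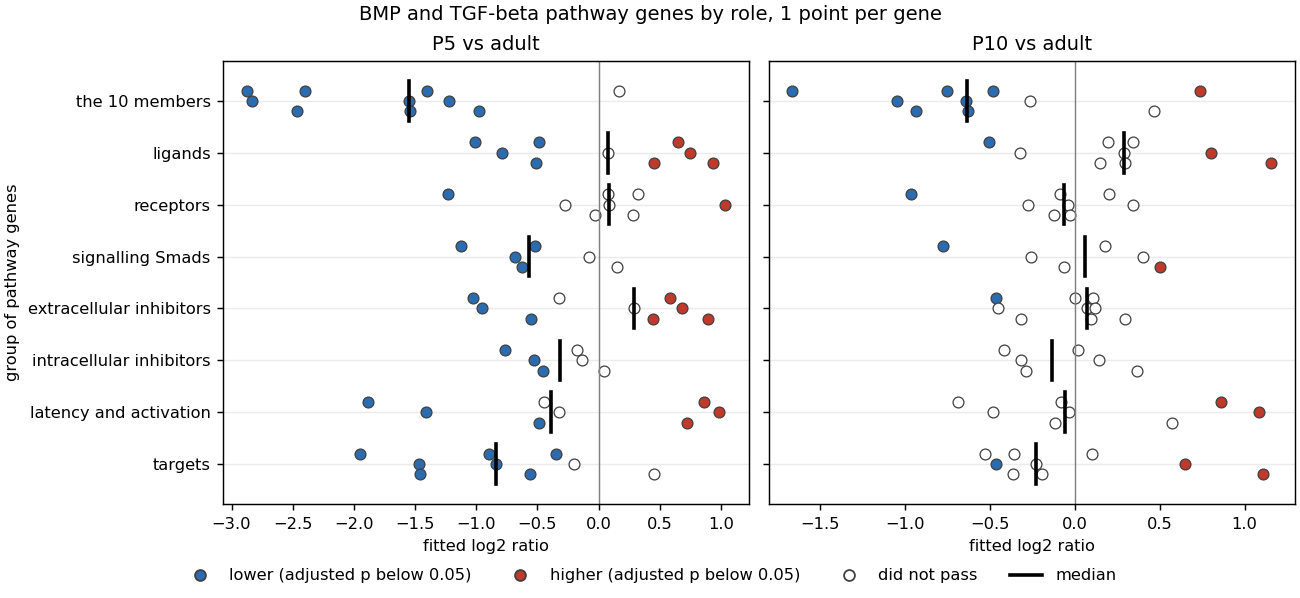
Fitted log2 ratio (horizontal axis) of each pathway gene for P5 over adult (left) and P10 over adult (right), in rows by role, with the 10 genes in the top row. Blue points passed as lower, red as higher and white did not pass, and black bars are medians. At P5 the 10 genes have a median of -1.55 and the further targets one of -0.84, while the ligands and receptors have medians of 0.08 and 0.08 with points on both sides of 0.

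Of 9 measured ligands, 4 were lower at P5, among them all 3 TGF-beta genes, and 4 were higher, and 1 was lower and 2 higher at P10. Tgfb2 and Tgfb3 were lower at P5 (-1.01 ± 0.13, adjusted p = 0.00411, and -0.79 ± 0.15, adjusted p = 0.0121), as was Tgfb1 (-0.51 ± 0.12, adjusted p = 0.0221). The second probe of Tgfb2 gave -0.51. Bmp2 did not pass at P5 (0.08 ± 0.23, adjusted p = 0.787) and was higher at P10 than in adults (1.15 ± 0.23, adjusted p = 0.0348, 0.99 and 1.32 in the 2 replicates), a call lost in 4 of the alternative analyses.

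Receptor genes mostly did not pass. Of 8, 1 was lower and 1 higher at P5. Bmpr2, the type II receptor that pairs with ALK1, was lower at P5 (-1.23 ± 0.10, adjusted p = 0.00141) and at P10 (-0.96 ± 0.10, adjusted p = 0.00712), a course with little change between the young ages, since P5 over P10 was -0.27 ± 0.10 (adjusted p = 0.0924). Without the replicate block the P10 value of Bmpr2 was -1.07 and did not pass (adjusted p = 0.161). With the background model fitted on all spots as recorded it was -0.96 and did not pass either (adjusted p = 0.0513). Acvr2b, an activin type II receptor, was higher at P5 than in adults (1.03 ± 0.16, adjusted p = 0.00702) and than at P10 (1.31 ± 0.16, adjusted p = 0.00802). With median centring in place of loess its P5 over adult value was 0.42 and did not pass.

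Of the 6 signal-carrying Smads, 4 were lower at P5 and none higher. Smad9, a Smad of the BMP branch, was lower at P5 (-1.13 ± 0.12, adjusted p = 0.00251) and at P10 (-0.78 ± 0.12, adjusted p = 0.0173), the latter lost in 2 of the alternatives. Its size depended on the processing, with P5 over adult at -2.66 with Agilent processed signals and -2.64 with the deposited log ratio, and P10 over adult at -1.45 and -1.50. Smad1, also of the BMP branch, was at -0.52 ± 0.13 at P5 (adjusted p = 0.0246), but its other probe, at -0.17, did not pass, and the call was lost in 3 alternatives. Smad2, which carries TGF-beta and activin signals, was at -0.68 ± 0.12 at P5 (adjusted p = 0.00842). With the background model fitted on all spots as recorded this value was -0.59 and did not pass (adjusted p = 0.0548). At P10 neither Smad1 nor Smad2 passed, at 0.18 and -0.06.

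Inhibitors outside the cell split in both directions, with 4 of 9 higher and 3 lower at P5. Htra1, a protease that restrains TGF-beta family signals, was lower at P5 (-1.03 ± 0.15, adjusted p = 0.00585), and so was the BMP antagonist Nbl1 (-0.96 ± 0.10, adjusted p = 0.00242). Fst, the activin antagonist follistatin, was higher at P5 (0.58 ± 0.10, adjusted p = 0.00974) and lower at P10 (-0.46 ± 0.10, adjusted p = 0.0436), and without the replicate block neither passed (adjusted p = 0.194 and 0.399). Neither passed with the background model fitted on all spots as recorded (0.065 and 0.413). The same held without the 2 arrays with faulty background spots (0.0566 and 0.121). With median centring the P10 value did not pass (0.305). With the deposited log ratio the P10 value of Fst was -1.08. Inside the cell, 3 of 6 inhibitors were lower at P5 and none passed at P10. The Smad co-repressors Skil (-0.76 ± 0.11, adjusted p = 0.00538) and Ski (-0.53 ± 0.10, adjusted p = 0.011, lost in 2 alternatives) were among the lower. Tgif1, another Smad co-repressor, did not differ from adult beyond the threshold and was lower at P5 than at P10 (-0.51 ± 0.10, adjusted p = 0.0186).

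Of 8 genes of TGF-beta latency and activation, 3 were lower and 3 higher at P5, near the shares of all genes (23% and 30.1%). The latent TGF-beta binding proteins Ltbp4 (-1.89 ± 0.16, adjusted p = 0.00157, and -2.79 at its other probe) and Ltbp1 (-1.42 ± 0.17, adjusted p = 0.00356) were lower. Nrros, which anchors latent TGF-beta on microglia and macrophages, was higher at P5 (0.98 ± 0.14, adjusted p = 0.00508) and P10 (1.09 ± 0.14, adjusted p = 0.011). Its P5 value with median centring was 0.37 and did not pass, and its P10 call was lost in 2 alternatives. Of the 7 measured microglia markers, 1 was higher at P5 and none at P10, and both measured perivascular macrophage markers, of 3 listed, were higher at P10. Their part in the Nrros value was not tested.

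The 9 further targets came closest to Id1 and Id3, with 7 lower at P5 and none higher (median -0.84). Hey1, a target of Notch as well as of ALK1, was at -1.95 ± 0.14 (adjusted p = 0.00113), Ccn2, a matricellular protein gene, at -1.47 ± 0.10 (adjusted p = 0.000975), and Tsc22d1, a TGF-beta stimulated gene, at -1.46 ± 0.10 (adjusted p = 0.001). Each was also lower at P5 than at P10, with P5 over P10 ratios of -1.42, -1.24 and -1.10, and none of the 3 passed at P10 against adult. The remaining Id genes moved less, Id2 to -0.57 ± 0.16 (adjusted p = 0.0337) and Id4 to -0.35 ± 0.11 (adjusted p = 0.0486) at P5. In P10 against adult, 2 of the 9 targets were higher and 1 lower. The TGF-beta target Tgfbi (0.65 ± 0.10, adjusted p = 0.0179) was among the higher and Id4 (-0.46 ± 0.11, adjusted p = 0.0486) was the lower one. The values of Tgfb1, Id2, Id4 and Tgfbi are outside the rule for named genes and were picked after they had been seen.

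Markers of several cell types, within and outside the vessel wall, were lower at P5 along with 9 of the 10 genes. Of the 10 endothelial markers, all measured, 10 were lower at P5 (median -1.63, range -2.52 to -0.63) and 1 at P10 (median -0.34, range -1.64 to 0.26). The second probe of the endothelial marker Kdr, however, did not pass, at 0.03 in P5 over adult and 0.07 in P5 over P10. Of 7 measured pericyte markers, 6 were lower at P5 (median -1.54), and so were all 5 smooth muscle markers (median -2.65). Outside the vessel wall, oligodendrocyte markers were lower in 4 of 5 genes at P5 (median -2.62) and 5 of 5 at P10 (median -1.78), and mature neuron markers in 3 of 4 and 4 of 4 (medians -1.04 and -1.17). Erythroid and immature neuron markers were higher at P5 in 5 of 5 genes each (medians 4.80 and 2.71). In P5 against P10, the median of -1.16 in the 10 genes lay near those of endothelial cells and pericytes (-1.16 and -1.17). There, 10 of 10 endothelial, 6 of 7 pericyte and 5 of 5 smooth muscle markers (median -2.05) were lower, against 18.2% of all genes. Oligodendrocyte markers were lower in 2 of 5 and higher in 1, mature neuron markers lower in none and higher in 2 of 4. Erythroid and immature neuron markers were higher in 5 of 5 each. In such bulk RNA, fewer cells of a type and less RNA per cell cannot be told apart, and the part of these shifts in the pathway values was not tested.

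**Figure D4:**
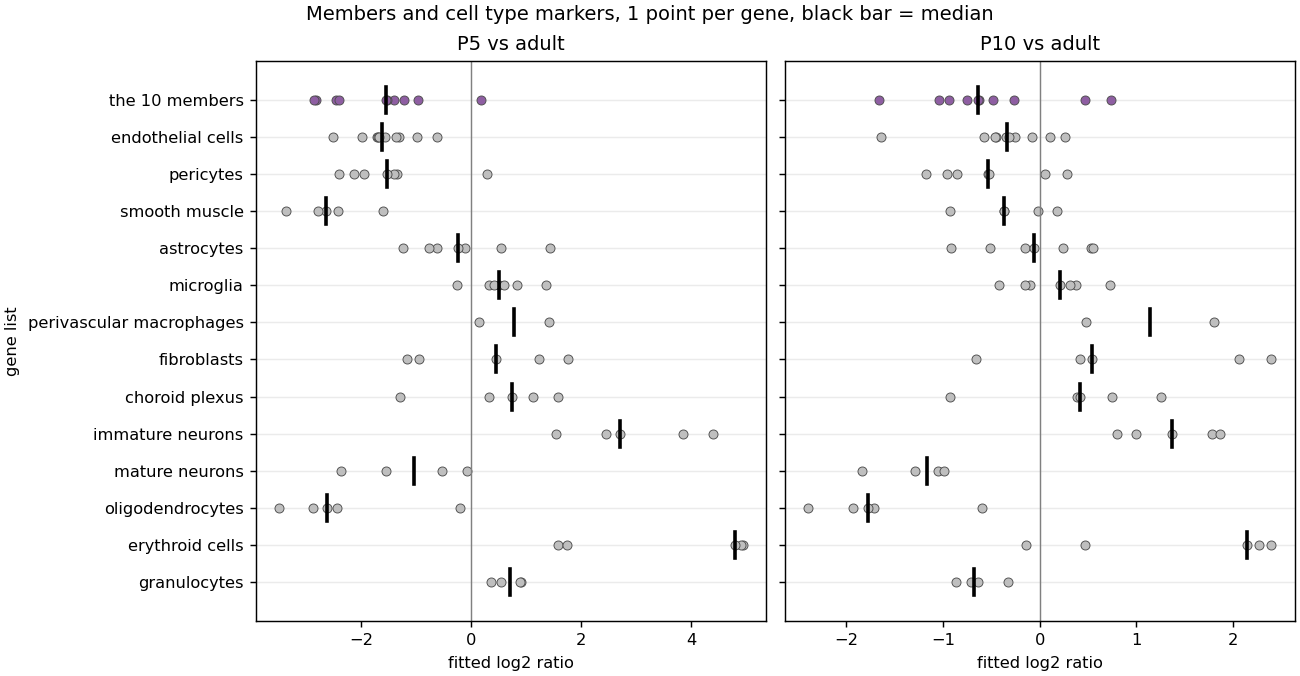
Fitted log2 ratio (horizontal axis) of the 10 pathway genes (top row) and of cell type markers (rows) for P5 over adult (left) and P10 over adult (right), with 1 point per gene and black bars at the medians. At P5 the median of the 10 genes, -1.55, lies near those of endothelial cells (-1.63) and pericytes (-1.54), that of oligodendrocytes (-2.62) lies lower, and those of erythroid cells (4.80) and immature neurons (2.71) lie far above 0.

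Set beside the 10 endothelial markers on the same slides, the genes spread widely, which is given here as a description with no test. Counts of markers use the fitted values. Acvrl1 lay below all 10 markers at both young ages. It was -1.38 and -1.13 log2 units from their median at P5 in replicates 1 and 2, and -1.37 and -1.27 from it at P10. At P10 the marker Emcn was nearly level with Acvrl1 (fitted -1.64 against -1.66) and lay lower in replicate 1 (-1.71 against -1.69). Id1 lay below all 10 at P5 (-1.23 and -1.37 from the median) and below 9 at P10 (-0.50 and -0.69). Smad6 (-0.96 and -0.83) and Smad7 (-1.09 and -0.56) were below 9 of the 10 at P5. At P10 both were again below 9 (Smad6 -0.68 and -0.16, Smad7 -0.76 and -0.65). Eng, Tgfbr2 and Tgfbr3 stayed within 0.26 of the median in both replicates at P5, with 6 of the 10 markers below each. At P10, 6 markers still lay below Tgfbr2 (0.14 and 0 from the median). Only 1 lay below Eng (-0.30 and -0.29) and 1 below Tgfbr3 (-0.28 and -0.33). Id3 (0.15 and 0.55) and Tmem100 (0.57 and 0.62) lay above the median at P5, and Bmp6 lay above all 10 markers at both ages. At P10 Tmem100 also lay above all 10, while Id3 lay below the median (-0.15 and -0.14), with 2 of the 10 markers below it. For P5 over P10, Acvrl1 (-0.01 and 0.02) and Tgfbr2 (-0.07 and 0.14) lay near the marker median. Id1 (-0.73 and -0.79), Tmem100 (-0.49 and -0.6), Smad6 (-0.29 and -0.79) and Smad7 (-0.34 and -0.03) lay below it. Eng (0.21 and 0.31), Tgfbr3 (0.4 and 0.13), Id3 (0.29 and 0.57) and Bmp6 (0.87 and 0.88) lay above it.

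Genes with the most similar course were found by the Euclidean distance over 4 fitted values, P5 and P10 relative to adult in each of the 2 replicates. For Tmem100 they were Egfl8 (distance 0.188), Vim (0.27) and Cavin3 (0.362), with P5 over adult ratios of -0.95, -1.05 and -0.79 and P10 over adult ratios of 0.71, 0.60 and 0.60. The nearest to Acvrl1 were the thiamine transporter gene Slc19a3 (0.286), Xaf1 (0.287) and Esyt2 (0.3), and to Id1 they were Hrct1 (0.334), Mmrn2 (0.362) and Pir (0.407). Eng was closest to the glucocorticoid receptor gene Nr3c1 (0.064) and Tgfbr3 to the endothelial gene Egfl7 (0.155). Tgfbr2 was closest to Ctnna1 (0.069) and Id3 to Ctnnb1 (0.075), both genes of the cadherin-bound catenins. Smad6 was nearest to Crip1 (0.258), Smad7 to Hspa12b (0.178) and Bmp6 to Cops5 (0.063).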

How the data were processed

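Per the labels' protocols, 100 ng of RNA per sample went into labelling. Titles and channel labels gave the age in each channel, the replicate and the dye orientation. Each deposited file is the Agilent Feature Extraction output of 1 array, version 10.5.1.1 per the file headers and version 12.6 per the submitters' processing notes. Per the file headers, median, local background and processed signals are intensity values. The log10 ratios deposited beside them divide processed Cy5 by Cy3.

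In R 4.3.3 with limma 3.58.1, median signals were corrected by normexp (offset 50) and normalized by loess (span 0.3) within each array. The 11 spots recorded more than 100 below their background, on 2 arrays, were given the array's median background and left out, as were outlier spots. Between 65.2% and 73.3% of the 43020 non-control spots per channel were well above background, and probes so in every channel of at least 1 age were kept (27170). No member spot was an outlier or saturated. Accessions were matched to symbols for 27427 of 39429 probes in the RefSeq table (GRCm38.p6). The probe design names mm9, so no probe coordinates are given, and the 2 promoter coordinates are those of the RefSeq table. The brightest probe stood for a gene.

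For each slide, the 4 ratios were reduced by least squares with a dye term to 1 value per age, and limma fitted age and replicate (2 residual and 2.91 prior degrees of freedom), with Benjamini-Hochberg adjustment over all 21926 genes. Ratios exist only within a slide, so the replicate block is part of the fit and per-replicate values are within-batch values. Across genes, which are not independent replicates, the replicates correlated at r = 0.901 (P5 over adult), 0.813 (P10 over adult) and 0.8 (P5 over P10). The fit was also run on simulated log2 ratios in which few genes changed, unlike these data, where 53.1% were called in P5 against adult. No normalization was part of that simulation, so it does not bear on the choice of normalization. Also run were 12 alternatives with a test and 2 that each leave out a replicate. The members, gene lists and tests were chosen with earlier results of these data known. All members are named. Of each further list, the 3 genes of largest ratio are named if called in any comparison, and exceptions are stated. 1 further gene of the lists is counted but not reported here by name.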

Additional observations from a re-analysis of the deposited data

Results flagged for a closer look

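Tmem100 stood out because its ratios to adult ran in opposite directions at the 2 young ages in both replicates, -0.88 and -1.08 at P5 and 0.73 and 0.75 at P10. The difference between those ages, P5 over P10, was -1.72 ± 0.11 (SE, n = 2, limma adjusted p = 0.00398), lower on both P5 over P10 arrays.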

How the results depend on the processing

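The fitted direction of the 9 members called at P5 held in P5 over adult under all 14 alternatives, and the count of 9 became 8 under 1 of them, the background model fitted on all spots as recorded. With that model 1 of 10 members was called in P10 against adult (main count 8) and 0 in P5 against P10 (main count 9). In limma 9 of the 10 members and 7069 of all genes then had an unadjusted p below 0.05 in P5 against P10, and the ratios of those 9 lay between -1.876 and -0.635. By probe, it called 1 of 11 in each of those comparisons, and over all genes 5391, 257 and 0 genes in P5 against adult, P10 against adult and P5 against P10, in place of 11644, 3843 and 9033. The cause was not tested. In P10 against adult, 4 members were called with Agilent processed signals and with the deposited log ratio. There were 2 with median centring, 3 with no replicate block and 5 without the 2 arrays that held faulty background spots, with the same counts by probe. Of all genes, 12.7% were called with Agilent processed signals and 12.9% with the deposited log ratio. All genes called in P10 against adult came to 1279 with median centring, 1832 with no replicate block, 1885 without the 2 arrays and 10068 in 1 fit of all 8 arrays, which counts dye-exchanged arrays as samples. In P5 against P10 they came to 5347 with no replicate block and 5611 without the 2 arrays. Median centring moved the median of all genes from 0.06 to -0.12 in P5 over P10 and turned 44.2% lower among calls into 60.1%. In P5 over adult these were 0.09 to -0.07 and 43.4% to 53.4%. Bmp6 in P5 over adult then turned to -0.29, and its P5 over P10 ratio passed (-0.76). Bmp2 in P5 over adult turned to -0.059 with the background model on all spots, -0.047 with the deposited log ratio, -0.109 with median centring, -0.083 with no dye term and -0.082 without the 2 arrays, and ran from -0.226 to 0.386 when a replicate was left out. Leaving out a replicate gave ranges of -0.206 to 0.084 for Smad2, -0.131 to 0.324 for Htra1 and -0.343 to 0.276 for Ltbp1 in P10 over adult, and of -0.294 to 0.081 for Nrros in P5 over P10. Smad2 was at 0.006 without the 2 arrays and Nrros at 0.079 with no dye term. The reversed values with a test did not pass, and those without a replicate had none. Median centring moved 5 members in P5 over adult by over 1.5 times (Acvrl1 -3.51, Id1 -3.57, Eng -2.22, Tgfbr2 -2.08, Id3 -1.90), and Agilent processed signals and the deposited log ratio moved Tmem100 (-1.59 and -1.65). Signal limits Tmem100 most, at 2.49 times background in its dimmest channel.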
